A study of Mus musculus with 18 samples.

Results

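The CCAT2-GT mice of a mouse bone marrow study carry 2 kinds of identifier, and 3 animals with the letter T (replicates 4, 5 and 6) were set against 3 with the letter G (replicates 1, 2 and 3), 6 of the 18 mice in all. All 6 are labelled C57Bl6, CCAT2-GT overexpressing and DRAI+, and the labels explain neither the letter nor the DRAI status. The other groups entered the model: 4 CCAT2-T and 4 CCAT2-G mice, both DRAI-, and 4 wild-type (WT) mice with no DRAI status. Per the labels, animals of the study carry CCAT2-G or CCAT2-T as a transgene that is overexpressed throughout the body. The labels do not give the promoter, the founder lines, the age or the sex. Flash-frozen marrow was measured on 1 Affymetrix array per mouse, and values are log2 expression after RMA, a normalization meant to give arrays a like distribution. Over the 18 arrays, medians ran from 4.27 to 4.40 and interquartile ranges from 2.90 to 3.36. The transgene itself was not analysed here.

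CCAT2 is a human long non-coding RNA that exists in a G and a T form, and the title of the series places the work in myeloid malignancy. Bone marrow holds the blood-forming cells together with a non-blood framework. Megakaryocytes are the large cells that shed platelets, stromal cells that produce CXCL12 and KIT ligand hold stem cells in place, and resident macrophages clear spent cells and the nuclei of red-cell precursors. A whole-marrow extract mixes all of these, so that fewer cells of a type and less RNA per cell cannot be told apart.

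The largest differences between the letters lay in genes of megakaryocytes, marrow stroma and macrophages, and they rested on 2 of the 3 letter T mice. For stroma and macrophages they rested also on letter G mouse 1, which had the lowest mean of the 6 in both lists. Letter T mice 4 and 6 had the highest megakaryocyte values of all 18 animals, while letter T mouse 5 lay among the letter G mice. No gene passed the adjusted threshold. Of 14505 genes tested with limma, 0 had an adjusted p under 0.05 in either direction, and the smallest adjusted p was 0.9996. At an unadjusted p under 0.05, 451 genes (3.11% of those tested) were higher and 137 (0.945%) were lower in letter T mice. All 3 letter T mice lay above all 3 letter G mice for 474 genes (3.27%) and below them for 459 (3.16%). Of the genes under the unadjusted threshold, 105 of the 451 higher and 68 of the 137 lower had groups that did not overlap. The median difference over all genes was -0.01, with 48.3% of genes above 0 and 51.7% below.

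The arrays themselves showed the same division. Across genes, letter T mouse 5 correlated most closely with letter G mouse 3 (r = 0.990), and its correlation with letter T mouse 4 was 0.966 and with letter T mouse 6 was 0.954. Letter T mice 4 and 6 were each other's nearest match among the 6 (r = 0.978). The 3 letter G mice had correlations of 0.974 to 0.977 with each other. Letter T mouse 6 stood farthest apart, with 114 genes more than 1 log2 unit above the next highest of the 6 mice, against 10 for letter T mouse 4 and 2 for letter T mouse 5, and against 20, 21 and 2 for letter G mice 1, 2 and 3. These correlations run across genes, which are not independent replicates, and carry no test.

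**Figure D1:**
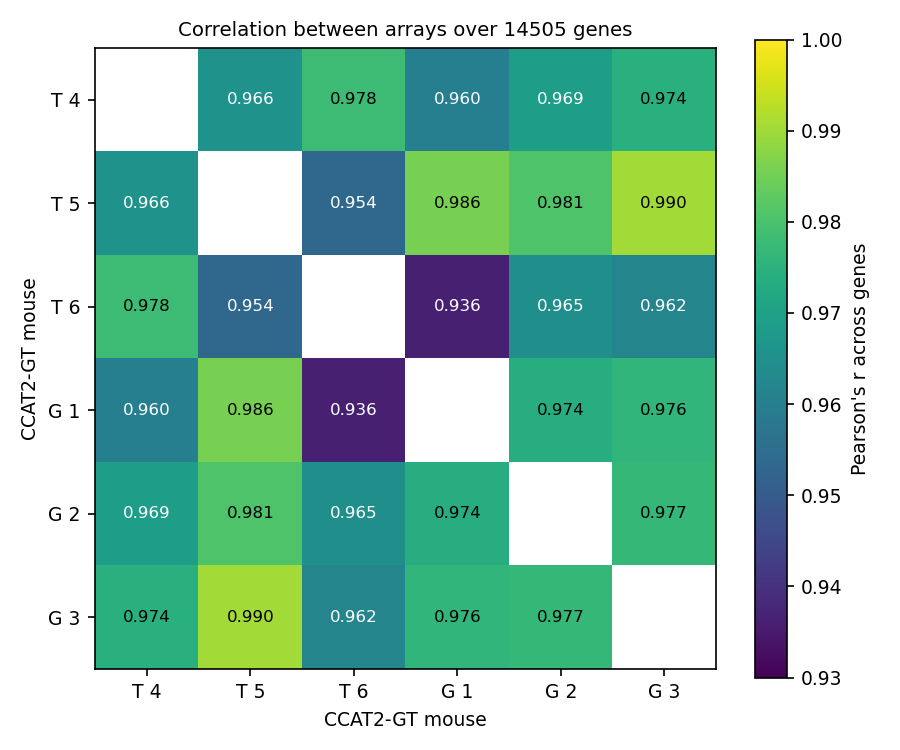
Pearson's r across 14505 genes between each pair of CCAT2-GT arrays, with letter T mice before letter G mice on both axes. Letter T mouse 5 shares its highest value, 0.990, with letter G mouse 3, while letter T mouse 6 and letter G mouse 1 have the lowest, 0.936.

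Sex-linked transcripts split the mice in another way. Xist, the RNA that coats the inactive X chromosome, was 3.77, 10.78 and 4.01 in letter T mice 4, 5 and 6, against 3.91, 10.71 and 11.16 in letter G mice 1, 2 and 3. The Y-linked translation factor gene Eif2s3y had the reverse pattern, at 7.58, 2.19 and 7.54 in the letter T mice, against 7.21, 2.32 and 2.28 in the letter G mice. Mice 4 and 6 of letter T and mouse 1 of letter G therefore had low Xist, and mouse 5 of letter T and mice 2 and 3 of letter G had high Xist. A score of Xist minus Y-linked genes averaged 1.46 in letter T mice and 5.08 in letter G mice (exact permutation test, two-sided, p = 0.3, where 3 against 3 mice cannot give less than 0.1). With this score as a covariate the megakaryocyte median was 1.604 (1.89 without it) with 18 of 26 genes at an unadjusted p under 0.05, the niche stroma median 1.03 (1.30) with 3 of 24, the macrophage median 0.99 (1.18) with 0 of 22, the endothelial median 0.38 (0.45) with 3 of 26, the matrix median 0.33 (0.41) with 2 of 29, the bone median 0.11 (0.40) with 1 of 17 and the immediate-early median -0.11 (-0.34) with 0 of 27. These counts are of genes higher in letter T mice, and 1 matrix gene was lower at that threshold. Of all 14505 genes, 270 were higher and 95 lower at that threshold with the covariate. The exact permutation test gave a p of 0.6 for array medians and 0.5 for interquartile ranges.

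Megakaryocyte and platelet genes showed the clearest difference. The mean over the 26 measured genes was 9.80, 6.83 and 9.52 in letter T mice 4, 5 and 6, against 6.25, 6.82 and 7.91 in letter G mice 1, 2 and 3. That is 8.72 ± 1.64 in letter T mice and 6.99 ± 0.84 in letter G mice (SD, n = 3 each). Mice 4 and 6 of letter T lay above the 12 animals outside the CCAT2-GT group, whose means ran from 6.11 to 8.37, and mouse 5 lay within them. All 26 genes had a higher mean in letter T mice, with a median difference of 1.89 against -0.01 over all genes, and 21 of 26 had an unadjusted p under 0.05 against 3.11% of all genes. With the 6 arrays alone the count under 0.05 was 4 of 26, against 259 of all 14505 genes on the higher side. Without letter T mice 4 or 6 or letter G mouse 1 it was 4, 7 and 10, against 199, 119 and 209. Without letter G mice 2 or 3 or letter T mouse 5 it was 15, 24 and 26, against 343, 548 and 880. F5 alone of the 26 had groups that did not overlap, against 3.27% of all genes on the higher side.

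Granule chemokines differed by about 2 log2 units. Pf4, the platelet factor that marks the lineage, was 12.28, 9.21 and 12.35 in letter T mice 4, 5 and 6, against 8.00, 9.39 and 10.50 in letter G mice 1, 2 and 3, a difference of 1.98 (SE 0.77). Ppbp, which encodes another platelet chemokine, was 12.80, 9.22 and 12.47 in the letter T mice, against 6.95, 9.80 and 11.19 in the letter G mice, a difference of 2.18 (SE 1.05). In both genes letter T mouse 5 was lower than letter G mice 2 and 3.

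Surface receptors of platelets were also highest in letter T mice 4 and 6. Gp9, a subunit of the receptor that binds von Willebrand factor, was 10.04, 6.70 and 9.87 in the letter T mice and 6.39, 6.91 and 7.64 in the letter G mice. Gp1bb, which encodes another subunit of that receptor, differed by 2.39 (SE 0.96), and Gp5 by 2.15 (SE 0.79). Itga2b, the alpha chain of the fibrinogen receptor and an early marker of the lineage, was 10.34, 7.11 and 9.83 in letter T mice, against 6.66, 6.65 and 8.37 in letter G mice, a difference of 1.86 (SE 0.65). Its partner Itgb3 differed by 1.90 (SE 0.74). The collagen receptor gene Gp6 was 6.61, 4.69 and 6.42 in letter T mice, against 4.54, 4.60 and 5.03 in letter G mice. Clec1b, the receptor for podoplanin, differed by 2.23 (SE 1.01), and Treml1, a receptor stored in platelet granules, by 2.18 (SE 0.69).

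Clotting, storage and cytoskeletal genes gave the remainder. F5, which encodes coagulation factor V, was 10.01, 8.60 and 9.62 in letter T mice, against 8.42, 8.11 and 8.42 in letter G mice, a difference of 1.09 (SE 0.31), and its groups did not overlap. Vwf, the adhesive protein of platelets and endothelium, differed by 2.43 (SE 0.86), and Cavin2 by 2.51 (SE 1.03), the largest difference of the list. P2rx1, the ATP-gated channel of platelets, was 8.48, 6.59 and 8.02 in letter T mice, against 5.67, 6.33 and 6.71 in letter G mice. Tubb1, the tubulin of the platelet rim, reached 11.78, 7.10 and 11.36 in letter T mice, against 6.10, 7.94 and 9.79 in letter G mice. The 5 genes with an unadjusted p of 0.05 or more were Ppbp, Cd9, Tubb1, Nrgn and Fli1. Fli1, an ETS-family transcription factor also found in other marrow cells, differed by 0.38 (SE 0.21), the smallest difference of the 26.

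**Figure D2:**
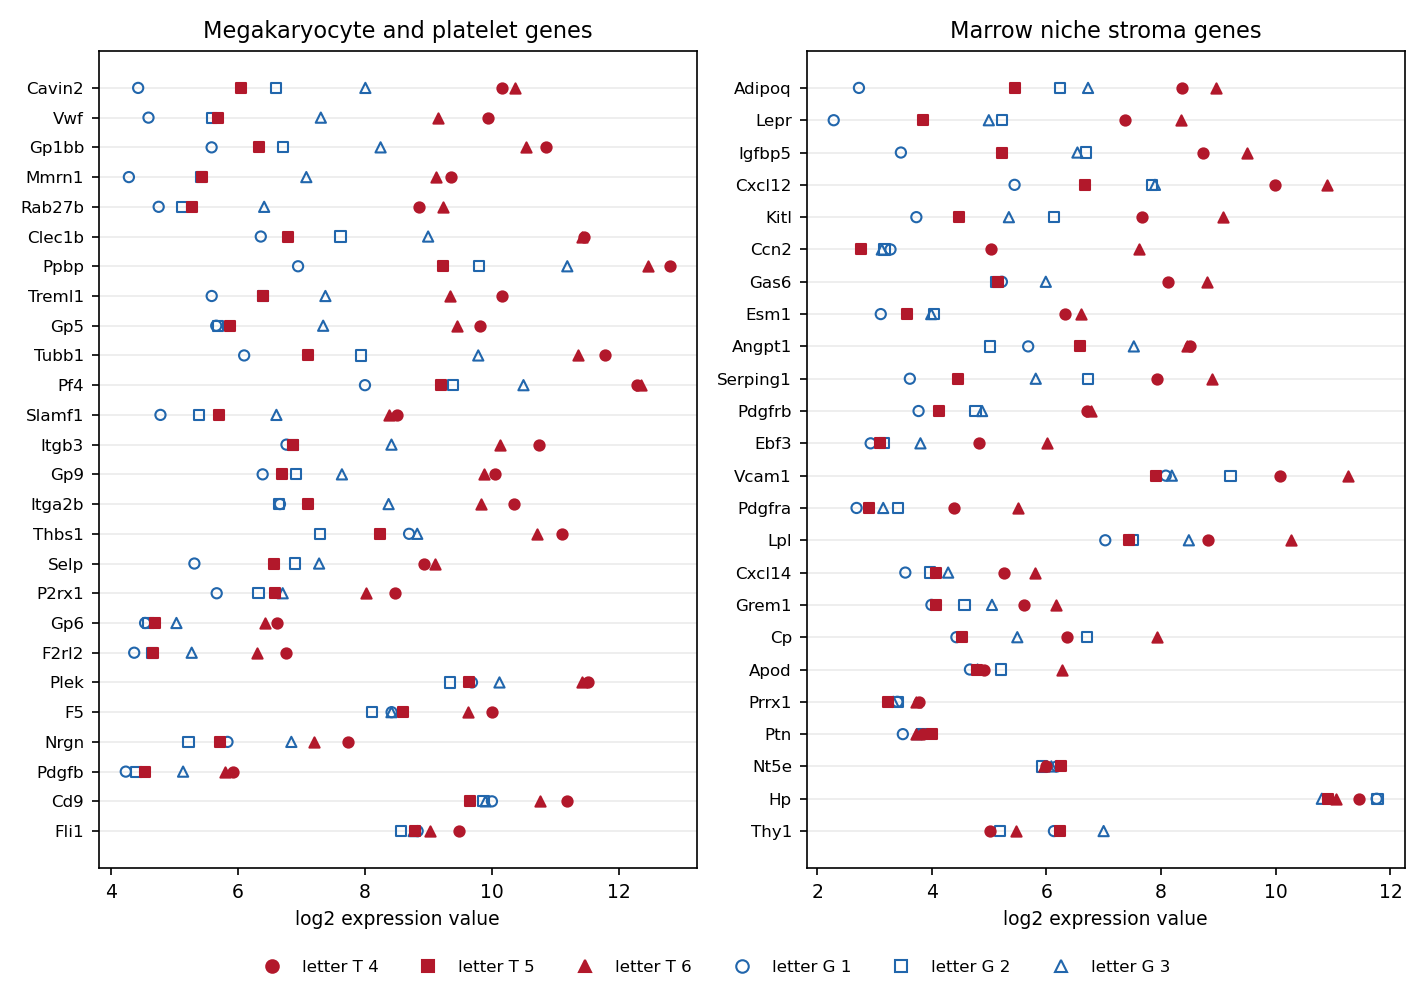
Log2 expression of each measured megakaryocyte or platelet gene (left) and marrow niche stroma gene (right) in the 6 CCAT2-GT mice, with letter T in filled red and letter G in open blue symbols and genes in order of their difference. The filled circle and triangle (letter T mice 4 and 6) lie to the right for most genes, while the filled square (letter T mouse 5) lies among the open symbols, as in Pf4 at 9.21.

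Promoter sequences are shown for 3 of these genes because GATA and ETS factors are textbook regulators of the lineage. Of the 6 mice, letter T mice 4 and 6 had the 2 highest values in 26 of 26 genes of the list. So they did in 21 of 26 endothelial, 18 of 24 niche stroma and 16 of 22 macrophage genes, against 3 of 34 red-cell genes. The share over all genes was not counted, so these counts have no background to be read against. The 2 mice stand out by these same lists, and shared regulation was not tested. Each promoter runs from 250 bases before to 50 after the gene start, 5′ to 3′ on the gene's strand, from RefSeq on GRCm38.p6. Pf4 lies at chr5:90772185-90772484 (plus strand), Gp9 at chr6:87777820-87778119 (plus strand) and Itga2b at chr11:102469834-102470133 (minus strand). Capitals mark the letters GATAA (or TTATC on the other strand) and AGGAAG (or CTTCCT on the other strand).
Pf4: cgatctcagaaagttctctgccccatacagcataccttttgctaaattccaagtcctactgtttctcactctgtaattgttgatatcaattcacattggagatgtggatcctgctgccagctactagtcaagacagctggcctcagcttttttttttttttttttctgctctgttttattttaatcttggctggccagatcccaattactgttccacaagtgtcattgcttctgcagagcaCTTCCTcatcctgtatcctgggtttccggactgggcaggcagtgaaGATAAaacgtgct
Gp9: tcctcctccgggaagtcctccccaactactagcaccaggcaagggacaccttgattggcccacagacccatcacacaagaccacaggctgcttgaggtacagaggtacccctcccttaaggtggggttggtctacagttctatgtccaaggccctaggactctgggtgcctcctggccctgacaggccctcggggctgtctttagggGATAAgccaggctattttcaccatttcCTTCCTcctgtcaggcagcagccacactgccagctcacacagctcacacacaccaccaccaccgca
Itga2b: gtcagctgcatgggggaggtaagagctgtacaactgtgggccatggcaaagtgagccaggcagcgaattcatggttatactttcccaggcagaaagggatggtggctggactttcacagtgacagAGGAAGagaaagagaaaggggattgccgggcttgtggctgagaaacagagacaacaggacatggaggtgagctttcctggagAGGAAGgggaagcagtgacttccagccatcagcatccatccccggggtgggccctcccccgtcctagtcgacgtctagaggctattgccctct
Among the 20 of 26 genes with a promoter in the table, 10 held GATAA, 12 held AGGAAG and 5 held both. Over all 27025 promoters of the same length 25.8% held GATAA, 35.1% AGGAAG and 9.32% both. These letters describe the sequence only, and no binding was measured.

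Stromal genes of the niche had the next largest median difference. The mean of 24 genes was 6.88, 5.08 and 7.63 in letter T mice 4, 5 and 6, against 4.61, 5.62 and 5.71 in letter G mice 1, 2 and 3, or 6.53 ± 1.31 in letter T mice and 5.31 ± 0.61 in letter G mice (SD, n = 3 each). Letter T mouse 5 was below letter G mice 2 and 3. The 12 animals outside the CCAT2-GT group ran from 4.70 to 7.01. Letter T mouse 6 lay above them, letter T mouse 4 within them and letter G mouse 1 below them. Of the 24 genes 22 were higher in letter T mice, with a median difference of 1.30, and 7 had an unadjusted p under 0.05, against 3.11% of all genes. None of the 24 had groups without overlap, against 3.27% of all genes on the higher and 3.16% on the lower side. The count under 0.05 was 1, with a median of 0.68, without letter T mouse 6, and 2 without letter T mouse 4 or without letter G mouse 1. It was 19, with a median of 2.15, once letter T mouse 5 was left out. Of all 14505 genes, 119 were higher at that threshold without letter T mouse 6 and 880 without letter T mouse 5. The numbers were 199 without letter T mouse 4 and 209 without letter G mouse 1. With the 6 arrays alone 2 of the 24 stroma genes were under 0.05, against 259 of all 14505 genes on the higher side.

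Cxcl12, the chemokine that retains stem cells, was 9.98, 6.67 and 10.89 in letter T mice, against 5.44, 7.84 and 7.89 in letter G mice, a difference of 2.12 (SE 1.02). Lepr, the leptin receptor that marks these stromal cells, was 7.37, 3.85 and 8.35 in letter T mice, against 2.29, 5.23 and 4.99 in letter G mice. Adipoq, which encodes adiponectin, was 8.36, 5.46 and 8.95 in letter T mice, against 2.73, 6.24 and 6.73 in letter G mice. In these 3 genes letter G mouse 1 had the lowest value of the 6. Angpt1, which encodes a ligand of the Tie2 receptor and is also made by megakaryocytes, differed by 1.78 (SE 0.62), Gas6, a ligand of Axl and Mertk, by 1.91 (SE 0.77), and the chemokine gene Cxcl14 by 1.12 (SE 0.36). Ccn2, a matrix-associated growth regulator, was 5.04, 2.76 and 7.61 in letter T mice, against 3.28, 3.18 and 3.13 in letter G mice, so that its difference of 1.94 (SE 0.82) came with the lowest value in letter T mouse 5.

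Macrophage genes were led by letter T mouse 6. The mean of 22 genes was 7.34, 5.86 and 8.59 in letter T mice 4, 5 and 6, against 5.64, 6.57 and 6.48 in letter G mice 1, 2 and 3. The value of letter T mouse 6 was the highest of all 18 animals, the 12 outside the CCAT2-GT group running from 5.50 to 7.60. Letter T mouse 4 lay within that range. Of the 22 genes 21 were higher in letter T mice, with a median difference of 1.18, and 4 had an unadjusted p under 0.05, against 3.11% of all genes: Apoe, Mertk, Cd68 and Lgmn. The median was 0.45 without letter T mouse 6, and without that mouse or without letter G mouse 1 none of the 22 was under 0.05. In those 2 settings 119 and 209 of all 14505 genes were higher at that threshold. With the 6 arrays alone 1 of the 22 was under 0.05, against 259 of all 14505 genes on the higher side. Mertk, a receptor for dying cells, was 7.31, 4.65 and 8.34 in letter T mice, against 4.87, 5.57 and 5.00 in letter G mice, a difference of 1.62 (SE 0.73). Timd4, a phosphatidylserine receptor, was 3.74, 3.18 and 7.13 in letter T mice, against 2.86, 3.31 and 3.42 in letter G mice, high in mouse 6 alone. Adgre1, which encodes F4/80, was 7.36, 7.40 and 8.97 in letter T mice, against 6.70, 7.33 and 7.34 in letter G mice. Its groups did not overlap, by a margin of 0.02 between letter T mouse 4 and letter G mouse 3. It was the 1 gene of the 22 without overlap on the higher side, against 3.27% of all genes. On the lower side 1 of the 22 had no overlap, against 3.16%.

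Vessel, matrix and bone genes also had their highest means in letter T mice 4 and 6. Endothelial and pericyte genes averaged 5.87, 4.88 and 6.10 in letter T mice, against 4.72, 5.07 and 5.31 in letter G mice, with 23 of 26 genes higher, a median difference of 0.45 and 8 with an unadjusted p under 0.05. Kdr, the main VEGF receptor, differed by 0.69 (SE 0.25) and Flt4, the receptor of lymphatic and sinusoidal endothelium, by 0.86 (SE 0.34). Matrix genes averaged 5.24, 4.32 and 5.65 in letter T mice, against 4.20, 4.70 and 4.63 in letter G mice, with 24 of 29 higher and 7 with an unadjusted p under 0.05. Timp3, an inhibitor of matrix proteases, was 8.61, 5.22 and 8.48 in letter T mice, against 4.54, 5.30 and 6.39 in letter G mice. Bone genes averaged 5.19, 4.28 and 5.79 in letter T mice, against 4.21, 4.80 and 4.59 in letter G mice, with 12 of 17 higher and 4 with an unadjusted p under 0.05. These counts under 0.05 stand against 3.11% of all genes. With the 6 arrays alone they were 2 of 26 endothelial, 0 of 29 matrix and 2 of 17 bone genes, against 259 of all 14505 on the higher side. In that setting 1 bone gene was lower at the threshold. Of the endothelial, matrix and bone genes, 0 of 26, 0 of 29 and 0 of 17 were under 0.05 without letter T mouse 6, with medians of 0.26, 0.16 and 0.08, and 1, 2 and 2 without letter T mouse 4, with medians of 0.40, 0.29 and 0.23. With letter T mouse 5 left out, 18, 15 and 8 were, with medians of 0.78, 0.65 and 0.62. Of all 14505 genes, 119, 199 and 880 were higher at that threshold without letter T mice 6, 4 and 5 in turn. Without letter G mouse 1 the matrix median was 0.20, with 0 of 29 under 0.05, against 209 of all genes on the higher side. Of the 17 bone genes, Col1a1 and Omd had groups that did not overlap on the higher side, against 3.27% of all genes. Sost, an osteocyte inhibitor of bone formation, did on the lower side, against 3.16%. Col1a1, the main bone collagen, was 4.27, 3.39 and 4.02 in letter T mice, against 3.36, 3.32 and 3.35 in letter G mice. Its groups were parted only by 3.39 in letter T mouse 5 against 3.36 in letter G mouse 1, close to the filter at 3.30. With the filter at the 50th percentile 10 bone genes remained, with a median of 0.09 and 1 under 0.05. Of all 11366 genes then tested, 325 were higher at that threshold. The endothelial and matrix medians were then 0.55 and 0.70, over 21 and 14 genes.

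Osteoclast genes had a median difference of 0.11, with 7 of 13 higher in letter T mice, and the protease gene Ctsk was 6.69, 4.65 and 6.07 in letter T mice, against 4.85, 4.92 and 4.70 in letter G mice. Cartilage genes had a median of -0.02 and adipocyte genes one of 0.08. Skeletal muscle genes had a median of -0.22, although Tpm2, a tropomyosin that is not restricted to muscle, was 10.02, 6.00 and 9.93 in letter T mice, against 4.72, 6.23 and 7.25 in letter G mice.

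**Figure D3:**
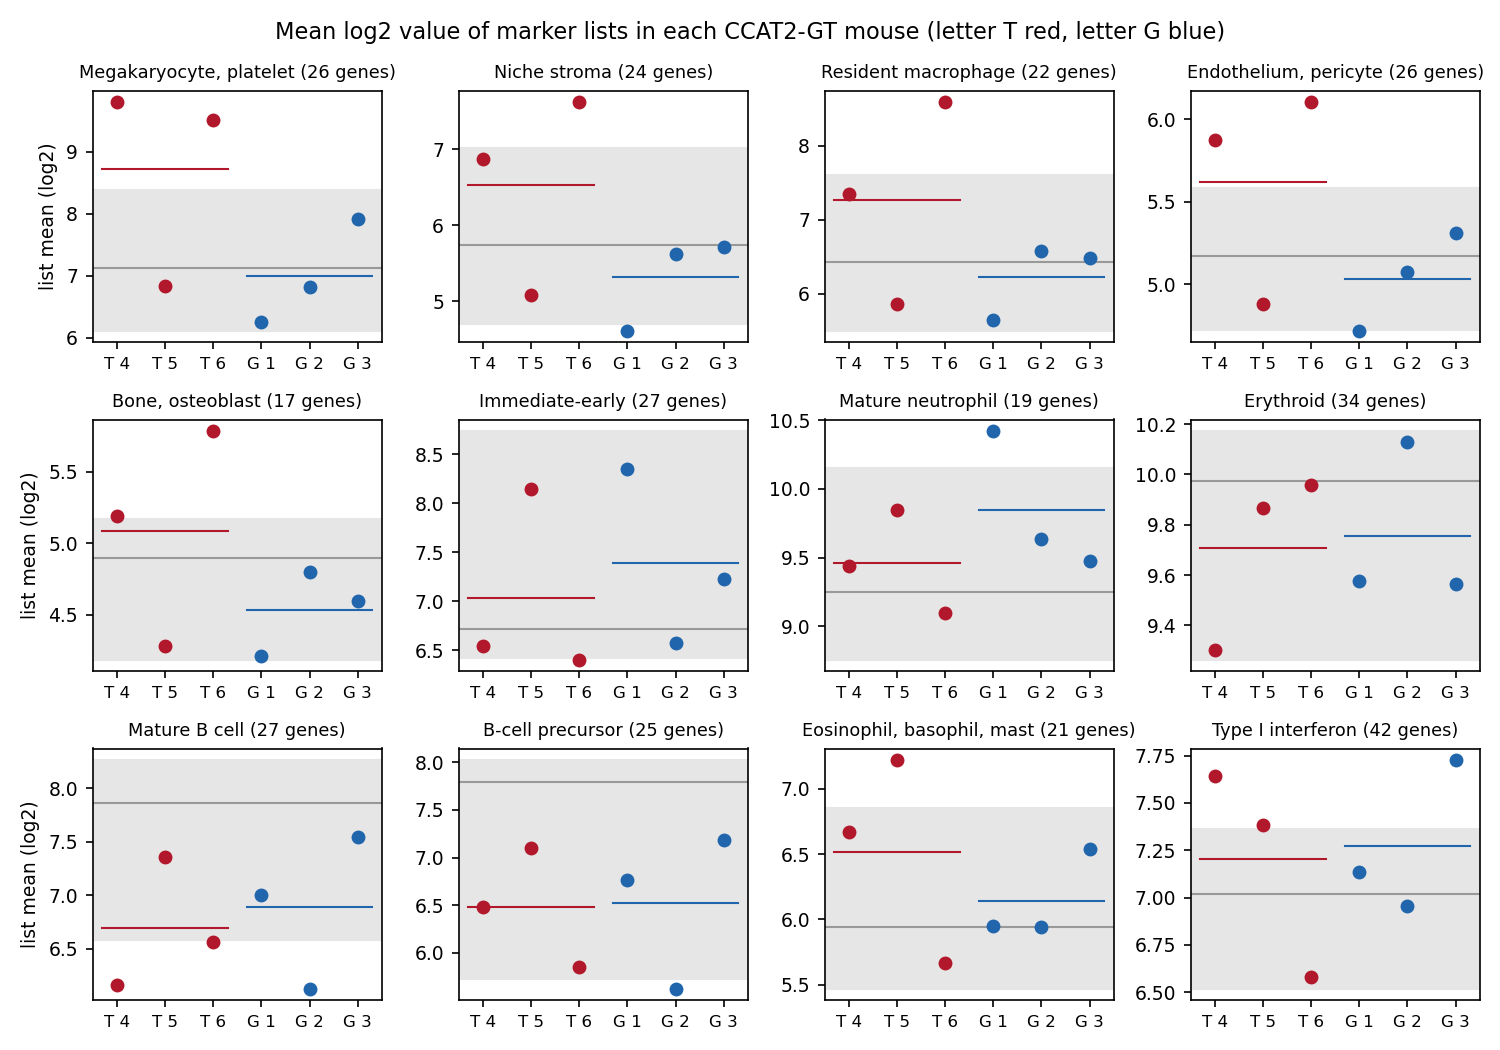
Mean log2 value of 12 gene lists in each CCAT2-GT mouse, with letter T mice in red, letter G mice in blue, a line at each letter's mean, and grey for the range and median of the 12 mice outside the CCAT2-GT group. Megakaryocyte means of 9.80 and 9.52 in letter T mice 4 and 6 lie above the grey range, and the value of 6.83 in letter T mouse 5 lies inside it.

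Granulocyte genes differed in the other direction, by less. Mature neutrophil genes averaged 9.44, 9.85 and 9.09 in letter T mice, against 10.42, 9.64 and 9.48 in letter G mice, and 18 of 19 had a lower mean in letter T mice with a median difference of -0.40. An unadjusted p under 0.05 was reached by 2 of the 19, against 0.945% of all genes in that direction. The count was 0 with the sex score as covariate, with the mean of probesets, and without letter T mouse 4 or 6 or letter G mouse 1 or 2. In those settings 34 to 168 of all genes were lower at that threshold. It was 1 with the 6 arrays alone, 3 without letter T mouse 5 and 6 without letter G mouse 3, against 103, 351 and 277 of all 14505 genes. Cxcr2, the receptor that draws neutrophils into blood, was 7.65, 7.91 and 6.99 in letter T mice, against 8.56, 8.23 and 7.87 in letter G mice, a difference of -0.70 (SE 0.33). Clec4e, which encodes the receptor Mincle, differed by -0.89 (SE 0.39). Letter G mouse 1 had the highest mature neutrophil mean of the 6, and without it the median was -0.13. Secondary granule genes were lower in 15 of 16 with a median of -0.31 and no unadjusted p under 0.05. Ltf, the granule protein lactoferrin, was 13.28, 13.08 and 12.26 in letter T mice, against 13.42, 13.25 and 13.01 in letter G mice. Primary granule genes, made earlier in the lineage, had a median of 0.15, and Mpo was 12.95, 12.23 and 12.15 in letter T mice, against 12.62, 12.48 and 11.66 in letter G mice.

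Red-cell genes had a median difference of -0.08. Their mean was 9.30, 9.87 and 9.96 in letter T mice, against 9.58, 10.13 and 9.56 in letter G mice, with 11 of 34 genes higher, 23 lower and none with an unadjusted p under 0.05. Klf1, the master regulator of the lineage, was 9.43, 10.16 and 10.33 in letter T mice, against 10.01, 10.59 and 9.47 in letter G mice. Gata1 and Gfi1b, which serve both red cells and megakaryocytes, differed by 0.47 (SE 0.24) and 0.52 (SE 0.28), the smallest p-values of the list.

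Eosinophil genes varied between mice of the same letter. Epx, the eosinophil peroxidase, was 10.05, 9.64 and 5.17 in letter T mice, against 4.16, 6.31 and 7.32 in letter G mice, a difference of 2.35 (SE 1.30). Ccr3, the eotaxin receptor, was 4.59, 5.99 and 6.39 in letter T mice, against 3.09, 4.14 and 5.02 in letter G mice, with a difference of 1.57 (SE 0.53). Hdc, the histamine-forming enzyme of basophils and mast cells, differed by -0.79 (SE 0.38). Across the 21 genes of eosinophils, basophils and mast cells 11 were higher and 10 lower. Letter T mouse 5 had a mean of 7.22, above the 12 mice outside the CCAT2-GT group at 5.47 to 6.85.

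Lymphoid genes were spread as widely within each letter as between them. Mature B-cell genes averaged 6.16, 7.36 and 6.56 in letter T mice, against 7.00, 6.13 and 7.55 in letter G mice, and B-cell precursor genes 6.49, 7.10 and 5.85 in letter T mice, against 6.77, 5.62 and 7.18 in letter G mice. Letter T mice 4 and 6 and letter G mouse 2 were below all 12 animals outside the CCAT2-GT group for mature B-cell genes, whose means there ran from 6.58 to 8.26. Ms4a1, which encodes CD20, was 5.60, 8.41 and 7.39 in letter T mice, against 7.52, 6.31 and 8.55 in letter G mice. Vpreb1, the surrogate light chain of pre-B cells, was 7.36, 7.92 and 3.99 in letter T mice, against 6.83, 4.02 and 7.62 in letter G mice. Cd3e, the T-cell receptor signalling chain, lay at 6.25 to 6.54 in letter T mice and 6.02 to 6.64 in letter G mice. Lat, an adaptor of T cells that platelets also carry, was 8.01, 6.79 and 8.20 in letter T mice, against 6.36, 6.14 and 7.20 in letter G mice, a difference of 1.10 (SE 0.32).

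Immediate-early genes, which cells switch on within minutes of stimulation or handling, differed by more within each letter than between the letter means. Fos was 6.75, 12.47 and 6.91 in letter T mice, against 12.83, 8.07 and 10.49 in letter G mice, a difference of -1.75 (SE 2.05). Junb, its partner, was 6.32, 9.21 and 6.02 in letter T mice, against 9.42, 6.78 and 7.59 in letter G mice. The mean of the 27 genes was 6.55, 8.15 and 6.40 in letter T mice, against 8.35, 6.57 and 7.23 in letter G mice. A lower mean in letter T mice was found for 25 of 27 genes, with a median of -0.34 and no unadjusted p under 0.05. Letter T mice 4 and 6 and letter G mouse 2 had low values, and the lowest megakaryocyte means were in letter G mouse 1, letter G mouse 2 and letter T mouse 5. The part of handling in the lineage differences was not tested. Genes of the NF-kB response had means of 5.80, 7.24 and 5.89 in letter T mice, against 7.27, 5.93 and 6.52 in letter G mice. Of these, Bcl3, a nuclear partner of NF-kB, was 5.38, 5.82 and 5.39 in letter T mice, against 6.42, 6.63 and 6.04 in letter G mice. Its groups did not overlap, which held for 2 of the 24 genes on the lower side, against 3.16% of all genes. The difference of Bcl3 was -0.83 (SE 0.31).

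Interferon-inducible GTPases and MHC genes were higher in letter T mice in 18 of 23, with a median difference of 0.15. The median was -0.02 without letter T mouse 4, with 9 of 23 higher, and without letter G mouse 2 it was -0.03 with 11 of 23 higher. Their mean was 8.24, 7.56 and 7.64 in letter T mice, against 7.35, 7.25 and 7.89 in letter G mice. Cxcl9, a chemokine induced by interferon gamma, was 7.66, 4.34 and 7.81 in letter T mice, against 3.39, 4.61 and 4.94 in letter G mice, a difference of 2.29 (SE 0.80). Igtp, a GTPase that defends against intracellular parasites, was 9.97, 7.98 and 9.07 in letter T mice, against 7.55, 7.90 and 8.61 in letter G mice. Type I interferon genes had a median of -0.07, with 1 of 42 higher at an unadjusted p under 0.05, against 3.11% of all genes. That gene was Lgals3bp, with a difference of 1.15 (SE 0.38).

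Growth and metabolic lists differed by little. Respiratory chain genes were higher in letter T mice in 29 of 30 with a median of 0.15, and DNA replication genes in 27 of 30 with a median of 0.11, none with an unadjusted p under 0.05. With letter T mouse 6 left out the respiratory chain median was 0.01 with 16 of 30 higher, and the DNA replication median 0.03 with 19 of 30. Without letter G mouse 3 the DNA replication median was -0.0015 with 14 of 30 higher. Mitotic genes had a median of -0.01, p53 target genes one of -0.02 and genes of ribosome production one of 0.02. Stem and progenitor genes had a median of 0.07. Cd34 was 6.46, 6.82 and 6.55 in letter T mice, against 6.67, 5.89 and 7.51 in letter G mice, and Kit differed by 0.15 (SE 0.33). The medians of monocyte genes (-0.23), dendritic cell genes (-0.19), plasma cell genes (0.01) and T and NK cell genes (-0.09) were also small beside those of the megakaryocyte and stromal lists.

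Genes known to be mutated in human myeloid malignancy had a median of -0.06, and 3 of 31 had an unadjusted p under 0.05 on the higher side, against 3.11% of all genes. None of the 31 did so with the 6 arrays alone, with the sex score as covariate, or without letter T mouse 4, letter T mouse 6, letter G mouse 1 or letter G mouse 2. In those settings 119 to 343 of all 14505 genes did so. Dnmt3a, a DNA methyltransferase, was 7.99, 6.14 and 7.68 in letter T mice, against 6.35, 6.04 and 6.79 in letter G mice, a difference of 0.87 (SE 0.35). Jak2, the kinase behind the thrombopoietin and erythropoietin receptors, was 8.35, 8.18 and 8.39 in letter T mice, against 8.00, 7.95 and 8.09 in letter G mice. It was the 1 gene of the 31 whose groups did not overlap, against 3.27% of all genes on the higher side. Ptpn11, a signalling phosphatase, differed by 0.59 (SE 0.27). Ezh2, the histone methyltransferase of the Polycomb complex, was 8.68, 9.17 and 8.93 in letter T mice, against 8.98, 9.10 and 8.89 in letter G mice. Myc, which CCAT2 is known to raise in human colon cancer cells, was 7.73, 7.98 and 8.20 in letter T mice, against 8.06, 8.11 and 8.10 in letter G mice, a difference of -0.12 (SE 0.27). Its neighbour Pvt1 was 4.98, 5.19 and 6.28 in letter T mice, against 5.03, 5.96 and 5.47 in letter G mice. Adar, the RNA-editing deaminase, differed by -0.21 (SE 0.17).

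Among all genes, the smallest p-values on the higher side belonged to Camk1, Serpinb2, Pgap4, Ttll11, P3h2, Plxna1, Shox2, F5, Tesc, Prkar2b, Maged2, Asap2, Ccl8, Dusp10 and P2rx1. Camk1, a calcium-activated kinase, was 7.53, 6.65 and 7.15 in letter T mice, against 5.72, 5.53 and 6.32 in letter G mice, a difference of 1.25 (SE 0.31) with no overlap. Serpinb2, the plasminogen activator inhibitor of macrophages, was 8.21, 6.09 and 8.08 in letter T mice, against 2.63, 4.52 and 5.95 in letter G mice. Its difference of 3.10 (SE 0.77) was the largest of these 15, and its groups did not overlap, by 0.15 between letter T mouse 5 and letter G mouse 3. Ccl8, a monocyte chemokine, was 7.37, 5.24 and 8.65 in letter T mice, against 4.82, 5.66 and 5.06 in letter G mice. Plxna1, a semaphorin receptor, was 5.76, 5.42 and 5.78 in letter T mice, against 4.90, 4.97 and 5.23 in letter G mice. Prkar2b, a regulatory subunit of protein kinase A, was 10.15, 8.41 and 9.83 in letter T mice, against 8.19, 8.45 and 8.45 in letter G mice. In 10 of the 15 letter T mouse 5 lay within the letter G range, the exceptions being Camk1, Serpinb2, P3h2, Plxna1 and F5. Groups did not overlap for these 5, and 23.3% of all higher genes at an unadjusted p under 0.05 had groups without overlap. The 15 were likewise chosen by p on the contrast itself.

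The genes with the smallest p on the lower side were Zfp948, Ccdc150, Dleu2, Cep95, Mdn1, Tbx6, Zbed6, Trip4, Parp6, Gpat3, Cep135, Galnt3, Gpr15, Ubxn7 and Psd4. Zfp948, a zinc-finger gene, was 3.07, 3.15 and 3.04 in letter T mice, against 3.73, 3.56 and 3.84 in letter G mice, a difference of -0.62 (SE 0.12). It had the smallest p of any gene, its levels were close to the filter at 3.30, and its other probeset differed the opposite way. Mdn1, a ribosome assembly factor, was 6.41, 6.49 and 6.09 in letter T mice, against 6.85, 7.09 and 6.78 in letter G mice. Galnt3, an enzyme of O-linked glycosylation, was 6.10, 5.80 and 5.76 in letter T mice, against 6.64, 6.67 and 6.13 in letter G mice. Gpat3, an enzyme of triglyceride synthesis, was 5.43, 5.76 and 4.12 in letter T mice, against 6.25, 6.02 and 5.88 in letter G mice. Groups did not overlap for 9 of these 15, and letter T mouse 5 lay within the letter G range in the other 6. Of all lower genes at an unadjusted p under 0.05, 49.6% had groups without overlap. The 15 were chosen by p on this same contrast, so their count is not separate evidence of a difference between the letters.

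**Figure D4:**
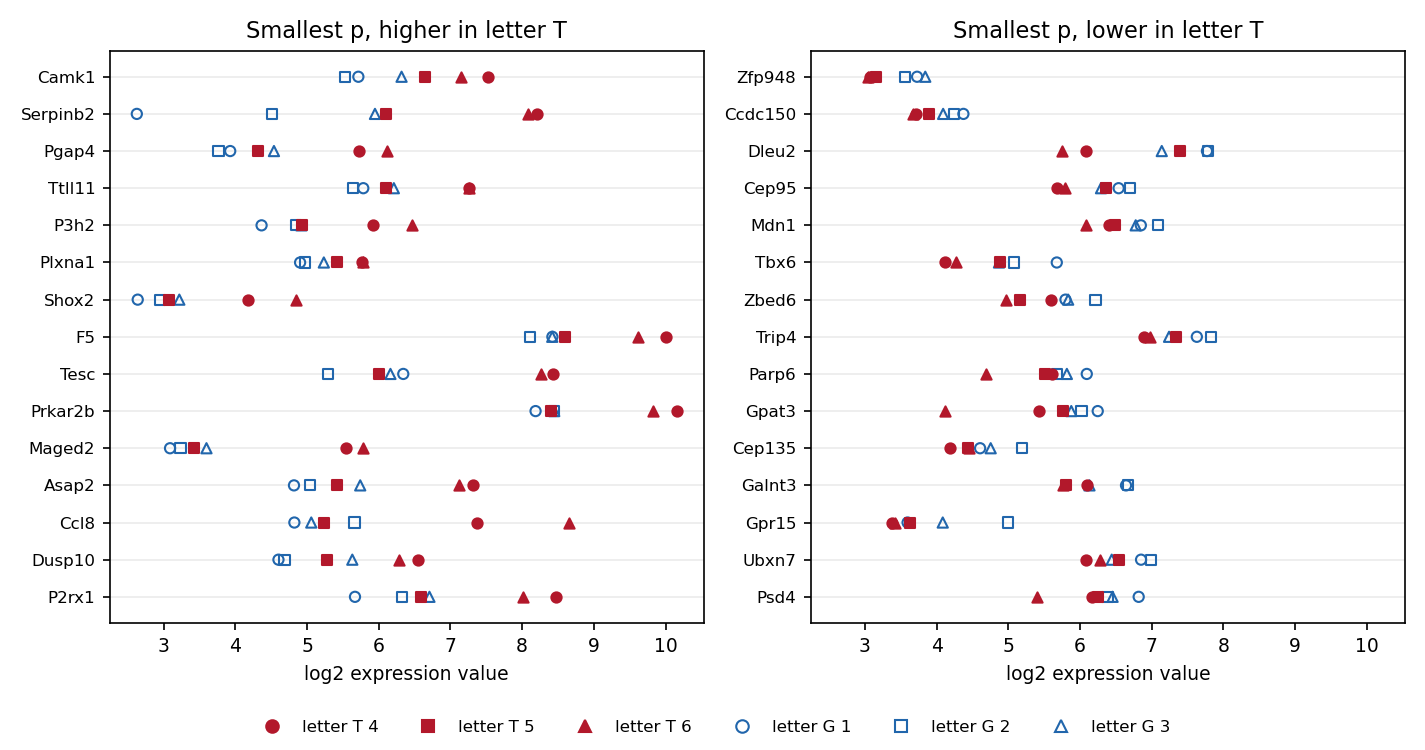
Log2 expression in each CCAT2-GT mouse of the 15 genes of smallest p on the higher (left) and lower side (right), with letter T in filled red and letter G in open blue symbols. On the left the filled square of letter T mouse 5 lies apart from the filled circle and triangle in most genes, as in Prkar2b at 8.41, while on the right in Zfp948 the 3 filled symbols lie together between 3.04 and 3.15.

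The counts depended on which mouse was present. Without letter T mouse 5, 260 genes had an adjusted p under 0.05 with limma, 253 higher and 7 lower in letter T mice, and the smallest adjusted p was 0.00477. Without letter T mouse 4 or letter T mouse 6 the count was 0, and genes under the unadjusted threshold numbered 199 and 119 on the higher side. Megakaryocyte and platelet genes made up 22 of the 260, which is 22 of the 26 measured, and niche stroma genes 5, of 24 measured. Over all genes it was 260 of 14505. With letter T mouse 5 alone against the 3 letter G mice, the median difference was -0.11 for megakaryocyte genes, -0.26 for niche stroma genes and -0.34 for macrophage genes. Among the low-Xist mice (letter T mice 4 and 6 against letter G mouse 1) the megakaryocyte median was 3.67, and among the high-Xist mice (letter T mouse 5 against letter G mice 2 and 3) it was -0.49. The niche stroma median was 2.65 in the low-Xist and -0.42 in the high-Xist mice, and the macrophage median 2.57 and -0.67. The contrasts with 1 animal on a side assume that it varies like the other groups.

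**Figure D5:**
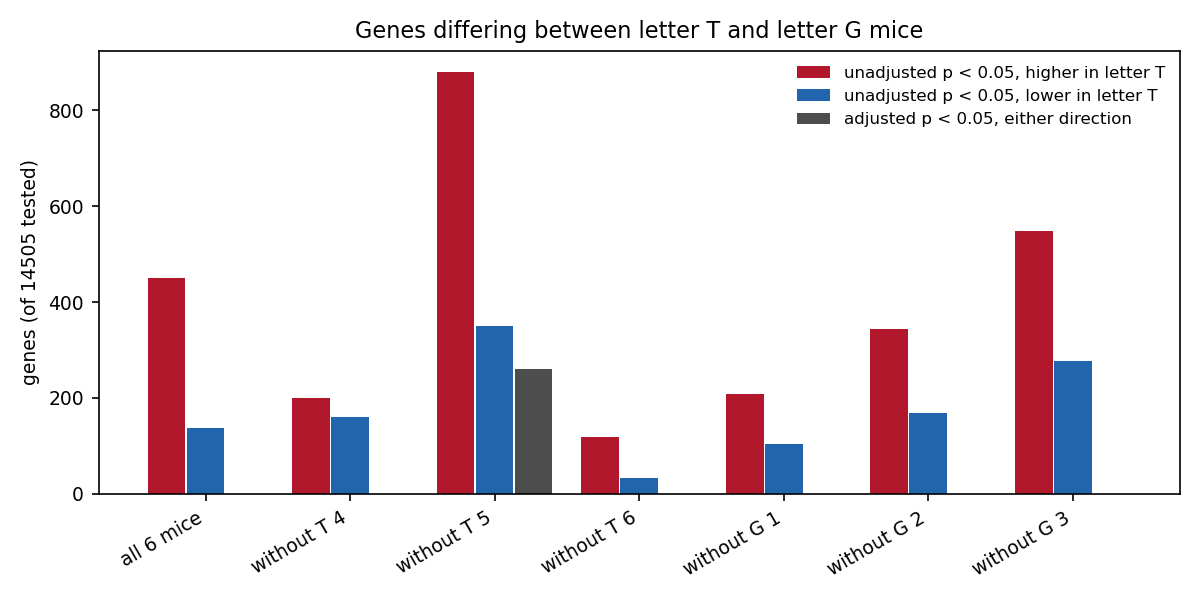
Number of genes, of those tested, that differ between letter T and letter G mice with all 6 animals and with each left out in turn, at an unadjusted p under 0.05 (red, higher; blue, lower) and an adjusted p under 0.05 (dark grey). The dark bar appears without letter T mouse 5, at 260 genes, and is 0 in the other settings drawn.

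The same letters name the single-form groups, and the direction there differed. Between letters in the CCAT2-GT mice the median difference was 1.89 for megakaryocyte genes, 1.30 for niche stroma genes and 1.18 for macrophage genes, against -0.93, -0.43 and -0.66 for CCAT2-T minus CCAT2-G in the DRAI- mice. Megakaryocyte means ran from 6.11 to 7.00 in CCAT2-T mice and from 7.13 to 8.18 in CCAT2-G mice. At an unadjusted p under 0.05, CCAT2-T mice were higher than CCAT2-G mice for 1.92% of all genes and lower for 4.09%. The test of the difference between the 2 differences gave 0 genes at an adjusted p under 0.05 (limma, smallest adjusted p 0.541). At an unadjusted p under 0.05 it gave 737 genes above 0 (5.08%) and 381 below (2.63%), and the megakaryocyte list held 25 of 26 above 0. For Serpinb2 the letter difference was 3.10 in CCAT2-GT mice, against a CCAT2-T minus CCAT2-G difference of -1.98 in DRAI- mice. Without letter T mouse 5 this test had 216 genes under the adjusted threshold.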

How the data were processed

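Total RNA of flash-frozen marrow from 18 mice was hybridised as biotin-labelled cRNA to Affymetrix arrays, per the labels' protocols. The authors deposited log2 values of 45101 probesets, normalized with RMA per the submitters' processing notes. Its version and the probe definition are not stated there. Groups came from the labels, and the identifier letter from the sample descriptions. Probesets with 1 gene symbol in the platform annotation (34958) gave 18194 genes, each represented by its brightest probeset, and 14505 had a mean at or above the 30th percentile (3.30). Differences, letter T minus letter G, came from a means model of 5 groups on all 18 arrays with 13 residual degrees of freedom (limma 3.58.1, R 4.3.3), moderated by eBayes with an intensity trend. P-values were adjusted over the genes tested (Benjamini-Hochberg), and 0.05 was the threshold. The fit was tested on simulated data. Errors are SE of the fit or SD between mice. The titles call each sample a biological replicate.

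The mice, the 34 lists (804 of 914 entries measured) and the rule for named genes were chosen with earlier results of these data known, so lists are described by counts and medians without a test, and some lists share genes. The rule names the 15 genes of smallest p in each direction (none passed), up to 4 members of smallest p per list, and fixed lineage markers, of which Ddx3y and Bglap were not measured. It leaves out predicted genes and segments of antigen receptors. Members of the 6 lists that led are also given beyond it, chosen after their values were seen. Array data give no depth, and precision is limited by the number of arrays. Alternatives were other normalizations, filters, probeset rules and variance estimates, the 6 arrays alone, a sex score as covariate, and each mouse left out. Chosen after seeing the data were letter T mouse 5 alone, and the high-Xist and low-Xist mice apart.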

Additional observations from a re-analysis of the deposited data

Results flagged for a closer look

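The mean of 29 genes of the unfolded protein and amino acid stress responses was 8.84 in letter G mouse 2, farther above the other 5 CCAT2-GT mice than their spread by Dixon's criterion for 6 samples. The values were 8.35, 8.31 and 8.35 in letter T mice 4, 5 and 6, against 8.37, 8.84 and 8.20 in letter G mice 1, 2 and 3. Chac1, a glutathione-degrading enzyme induced by Atf4, was 5.46, 5.58 and 5.17 in letter T mice, against 5.82, 7.61 and 5.50 in letter G mice. Trib3, another target of Atf4, was 4.74, 4.75 and 5.01 in letter T mice, against 4.70, 6.58 and 4.77 in letter G mice. In both genes letter G mouse 2 lay above the other 5 and above the 12 mice outside the CCAT2-GT group. The criterion was applied to 34 list means and met by 1, and chance meets it in about 1 of 20 groups.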

How the results depend on the processing

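Over the 61 named genes and 19 alternatives, 1148 values were computed, of which 81 changed sign and 34 passed the adjusted threshold, those without letter T mouse 5 or among low-Xist mice. Without each mouse in turn, the genes with an adjusted p under 0.05 numbered 0 to 260 and those of the test between the 2 differences 0 to 216, with the highest count without letter T mouse 5 in both. Genes at an unadjusted p under 0.05 then numbered 119 to 880 higher and 34 to 351 lower. Among low-Xist mice 190 genes passed, 798 were higher and 581 lower at the unadjusted threshold. With letter T mouse 5 alone 38 were higher and 18 lower, and among high-Xist mice 47 and 27. The 6 arrays alone gave 259 higher (4 of 26 megakaryocyte genes), the sex score as covariate 270 higher, and array weights 218 lower. The remaining normalization, filter, probeset and variance alternatives kept each count within 1.5 times. With limma, the smallest adjusted p was 0.222 after median centring and 0.201 after quantile normalization, and no gene passed in either.

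List medians moved with the mice. With letter T mouse 5 alone, among high-Xist and among low-Xist mice they were -0.11, -0.49 and 3.67 for megakaryocyte genes, -0.34, -0.67 and 2.57 for macrophage genes, -0.26, -0.42 and 2.65 for niche stroma genes, -0.14, -0.21 and 1.06 for endothelial genes, and 0.60, 0.91 and -1.42 for immediate-early genes. Without each mouse in turn the megakaryocyte median ran from 1.30 (without letter T mouse 4) to 2.92 (without letter T mouse 5), and its genes under the unadjusted threshold from 4 to 26. The niche stroma median ran from 0.68 and the macrophage median from 0.45, both without letter T mouse 6, to 2.15 and 1.92 without letter T mouse 5. The immediate-early median ran from -0.80 without letter T mouse 5 to 0.01 without letter G mouse 1. The erythroid median was 0.13 without letter T mouse 4 and 0.15 without letter G mouse 2.

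Named genes that changed sign had small differences or depended on letter T mouse 5. With that mouse alone the differences were 2.19 for Xist, -1.75 for Eif2s3y, -0.90 for Kdm5d, -0.0895 for Pf4, -0.39 for Cxcl12, -0.32 for Lepr, -0.14 for Pecam1, 2.01 for Fos, 0.10 for Cd79a, 0.95 for Ms4a1, 0.17 for Cd3e, 0.13 for Cd34, 0.18 for Ezh2, 0.14 for Klf1, -0.0255 for Mpo and -0.33 for Elane. Among high-Xist mice they were -0.11 for Eif2s3y, -0.74 for Pf4, -1.20 for Cxcl12, -1.26 for Lepr, -0.24 for Pecam1, 3.19 for Fos, 0.52 for Cd79a, 0.98 for Ms4a1, 0.21 for Cd3e, 0.12 for Cd34, 0.18 for Ezh2, 0.14 for Klf1, 0.0134 for S100a8, -0.00576 for Shox2, -0.0373 for Prkar2b and -0.12 for Ccl8. Among low-Xist mice they were -0.0135 for Csf1r, 0.60 for Pvt1, -0.61 for Elane, -0.0726 for Mpo, -1.16 for Vpreb1, -0.35 for Jchain, 0.15 for Oas1a, -0.0257 for Kit, 0.21 for Acta1 and -0.11 for Acan. With the sex score as covariate they were 0.10 for Xist, 0.0541 for Pvt1, -0.19 for Elane, 0.0563 for Cd34 and 0.0091 for Ezh2. Xist is itself part of that score, so its value there is not informative. Csf1r was -0.0038 with median centring, -0.0363 with the mean of probesets and -0.0789 with array weights, and Pvt1 was 0.000476 with quantile normalization and 0.070 with the mean of probesets.

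Without each mouse in turn the differences ran from -0.17 to 0.21 for Csf1r, -0.40 to 0.24 for Pvt1, -0.42 to 0.68 for Elane, -0.48 to 0.33 for Cd34, -0.18 to 0.0620 for Ezh2, -0.32 to 0.24 for Klf1, -0.11 to 0.37 for Mpo, -0.80 to 1.48 for Vpreb1, -0.96 to 0.44 for Ms4a1, -0.18 to 0.13 for Cd3e, -0.23 to 0.0023 for Myc, -0.16 to 0.88 for Jchain, -0.69 to 0.20 for Oas1a, -0.0607 to 0.26 for Kit and -0.54 to 0.18 for Acta1. The cause of these shifts was not tested. No paired analysis was possible because letter T mice carry the replicate numbers 4 to 6 and letter G mice 1 to 3, so that the groups share none.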
